A study of Mus musculus with 24 samples.

Results

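Mouse cells take up glucose through membrane transporters and break it down to pyruvate and lactate by glycolysis, and 10 genes of that route were compared between embryonic stem cells (ESCs) and the neural progenitors derived from them (NPCs). The genes, Slc2a1, Slc2a3, Hk1, Hk2, Pfkp, Aldoa, Gapdh, Pgk1, Eno1 and Ldha, were chosen by name, and all 10 were found among the 21909 gene symbols of the RNAseq tables. The study maps nucleolus-associated domains (NADs), stretches of the genome that contact the nucleolus, in both cell types, with 8 Nucleolar-DamID, 10 ChIPseq and 6 RNAseq samples. The Nucleolar-DamID samples are of E14 lines that carry the methylase fusion H2B-Dam, or H2B-Dam-NoLS with a nucleolar localization signal added, induced over 15 h by doxycycline (100 ng/ml) and Shield1 (1 µM). The 6 RNAseq samples are 3 replicates of ESCs and 3 of NPCs. The ESCs are E14 cells that received no treatment and grew on gelatin without feeders in 2i medium with LIF (1000 U/ml) and the inhibitors CHIR99021 (3 µM, against GSK3β) and PD0325901 (1 µM, against MEK). The NPCs were derived from E14 ESCs through embryoid bodies in suspension, over 8 days in medium with 10% fetal calf serum, with retinoic acid (2 µM) in the last 4 days. ESC and NPC values stand in separate tables, and the medium, the serum and any batch difference between the tables cannot be told apart from the cell type.

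As background, Slc2a1 and Slc2a3 carry glucose across the plasma membrane, hexokinases trap it by phosphorylation, and phosphofructokinase makes the step that commits it to glycolysis. Aldolase, Gapdh, Pgk1 and enolase then lead to pyruvate, with ATP made on the way, and lactate dehydrogenase turns pyruvate into lactate while it restores the NAD+ that Gapdh needs. Pluripotent stem cells are known for a high rate of glycolysis, and many genes of the route are known targets of the hypoxia-inducible factors (HIFs) and of MYC.

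The question put to the RNAseq data was which of these genes differ in transcript level between the cell types, and which isozyme of each step is the most abundant in each. Levels are the RPKM values of the authors. Their steps fit whole reads per kilobase of the gene span, from start to end with introns, at 34052000, 33732000 and 30780000 reads in ESC replicates 1, 2 and 3 and 30151000, 27263000 and 32298000 reads in the NPC replicates, to the nearest 1000. With GENCODE M21 spans, 94.8% to 95.1% of the values under 1000 reads lay within 0.05 of a whole read, against 10.7% to 11.7% with exon lengths. This departs from the methods of the study, which describe coverage of exons. RPKM is therefore used below to compare 1 gene between samples. The order of the 10 genes is given per kilobase of exons, a scale chosen after seeing the data. Shares, list sums and the highest gene of a list are in RPKM unless said otherwise, where a gene with long introns counts for less than per kilobase of exons. The 10 genes had between 2566 and 82500 reads in each sample, so the spread between replicates and not the depth limits their precision.

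ESC replicate 3 stood apart from the other ESC samples. Its RPKM values summed to 141243, against 105011 and 106892 in ESC replicates 1 and 2 and 86130, 87367 and 86824 in the NPC replicates. Across tested genes, its log2 levels correlated with ESC replicates 1 and 2 at r = 0.963 and 0.966, against 0.999 between those replicates, a description in which genes are not independent. The deviation followed gene span. Its log2 deviation was taken from the mean of ESC replicates 1 and 2. The 20% of genes with the shortest spans, under 8.23 kb, had a median deviation of 0.24. The 20% with the longest spans, over 76.1 kb, had -0.45. Of the 10 genes, Aldoa, Gapdh, Pgk1, Eno1 and Ldha, with spans of 4.75 to 16.6 kb, were highest in ESC replicate 3, and Slc2a3, Hk1, Hk2 and Pfkp, with spans of 49.4 to 111.1 kb, were lowest in it. Calls of the 10 genes are therefore given with and without this sample. Other results are with all 6 samples unless said otherwise.

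The cell type labels were checked against marker genes. Of all tested genes, 41.6% lay higher in every NPC sample than in any ESC sample and 38.4% lower, so a count of markers alone says little, and summed levels are given beside each. All 8 ESC markers lay lower in every NPC sample than in any ESC sample, and their summed level was 1812, 1800.4 and 3658 RPKM in the ESC replicates and 9.33, 10.8 and 12.2 RPKM in the NPC replicates. Pou5f1, a core pluripotency factor, stood at 130.0, 136 and 202 RPKM in the ESC replicates and 0.0558, 0.0386 and 0.0651 RPKM in the NPC replicates. The neural progenitor markers summed to 41.6, 43.2 and 51.1 RPKM in the ESC replicates and 86.4, 92.2 and 94.6 RPKM in the NPC replicates, with Vim, an intermediate filament gene, the highest. Of 8, 7 lay higher in every NPC sample, among them Pax6, the radial glia factor the protocol aims for, at 0.0134, 0.0167 and 0.00457 RPKM in the ESC replicates and 1.55, 1.42 and 1.67 RPKM in the NPC replicates. Hes5 and Olig2 were at 0 in every ESC sample.

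Markers of other cell types were read in the same way, beside the same 41.6% higher and 38.4% lower of all tested genes. Those shares are over genes with at least 1 RPKM in at least 3 samples, which many of these markers did not reach. RPKM here is per kilobase of gene span, so a gene with long introns reaches that level less easily. Of 8 each, 6 neural progenitor, 6 endoderm, 4 neural crest and mesenchyme, 2 endothelium and blood, 1 mesoderm and cardiac and 2 neuron markers did. The marker counts therefore stand beside shares of another set of genes. All 8 endoderm markers lay higher in every NPC sample than in any ESC sample. The list summed to 0.195, 0.209 and 0.241 RPKM in the ESC replicates and 19.0, 20.5 and 19.6 RPKM in the NPC replicates, with Gata6 the highest in NPCs. Afp and Ttr were at 0 in all ESC samples and low in the NPC replicates, Afp at 0.0329, 0.0222 and 0.0102 RPKM and Ttr at 0.154, 0.141 and 0.160 RPKM. Of 8 neural crest and mesenchyme markers, 5 lay higher in every NPC sample and 2 lower, Foxd3 among the latter. The sum was 8.35, 8.87 and 7.68 RPKM in the ESC replicates and 44.6, 50.2 and 50.0 RPKM in the NPC replicates. Col1a1 was the highest in NPCs (Col3a1 per kilobase of exons). Dcn was at 0 in all ESC samples and at only 0.0284, 0.0209 and 0.0281 RPKM in the NPC replicates. Of 8 endothelium and blood markers, 4 lay higher and 1 lower, Pecam1, at 1.21, 1.17 and 0.929 RPKM in the ESC replicates and 0.496, 0.407 and 0.396 RPKM in the NPC replicates. They summed to 1.38, 1.32 and 1.01 RPKM in the ESC replicates and 6.33, 6.36 and 6.83 RPKM in the NPC replicates, with Kdr the highest in NPCs, Hba-a1 at 0 in all ESC samples and Ptprc at 0 in all NPC samples. Of 8 mesoderm and cardiac markers, 4 lay higher and 2 lower, T and Myh6. The list sum was 3.15, 3.26 and 4.83 RPKM in the ESC replicates and 9.26, 15.1 and 16.3 RPKM in the NPC replicates. Myl7 was the highest and most of that sum, at 1.93, 2.02 and 3.60 RPKM in the ESC replicates and 7.93, 13.5 and 14.7 RPKM in the NPC replicates. Of 8 neuron markers, 6 lay higher in every NPC sample, most of them under 1 RPKM throughout, and 2, Tubb3 and Stmn2, lay lower. Per kilobase of exons the NPC means of the 6 were 5.61 (Dcx), 4.44 (Elavl3), 2.38 (Map2), 1.24 (Rbfox3), 0.844 (Syp) and 0.795 (Snap25). The neuron list summed to 11.2, 12.3 and 14.5 RPKM in the ESC replicates and 7.25, 5.90 and 7.04 RPKM in the NPC replicates, with Tubb3 the highest and Dcx at 0 in all ESC samples. By these levels the NPC cultures held RNA of endoderm, mesenchyme and vascular genes, and of cardiac genes mainly Myl7, beside that of neural genes. The part of this RNA in the results below was not tested. In these bulk samples, fewer cells of a type and less RNA per cell cannot be told apart.

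Of the 10 genes, 1 rose in NPCs (Slc2a1), 4 fell (Slc2a3, Hk1, Pfkp and Gapdh) and 5 were not called (Hk2, Aldoa, Pgk1, Eno1 and Ldha), in a limma fit on log2(RPKM + 1) over 7848 genes with at least 1 RPKM in at least 3 samples. Called means a Benjamini-Hochberg adjusted p under 0.05, and all 10 genes passed the filter. Across all tested genes, 36.9% rose and 33.3% fell, so calls were common in both directions. With ESC replicate 3 left out, 3 of the 10 genes were higher in NPCs (Slc2a1, Pgk1 and Ldha) and 5 lower (the same 4 and Hk2), beside 43.9% and 44% of all tested genes. With a change of at least 2-fold required as well, 0 rose and 2 fell (Slc2a3 and Pfkp), beside 16.6% and 12.1% of all tested genes. The same genes that were called had groups that did not overlap, 1 higher and 4 lower, beside 41.6% and 38.4% of all tested genes, and the other 5 overlapped.

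A gene under 1 RPKM in every sample of 1 cell type passed the filter through the other cell type alone and had to differ. Hk1 passed through ESCs alone in this way, and it was also called with no filter. Among genes with at least 1 RPKM in a sample of each cell type, a set chosen after seeing the data, 1 of 9 glycolysis genes rose and 3 fell, beside 26.2% and 34.7% of all 5943. Counts of the pathway lists below are over this set.

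The median log2 difference, NPC minus ESC, was -0.23 for the 10 genes and 0.03 for all tested genes, and -0.21 and -0.09 in the set with at least 1 RPKM in both cell types. Rescaling each sample to the same RPKM sum moved the median of all tested genes to 0.45, with 3525 genes higher and 1590 lower in place of 2898 and 2611. Median centring moved that median to -0.09, and voom on recovered reads gave 0.40 over 13579 genes, another set than the 7848 of the other values. Relative to the median of all tested genes, the difference was 0.87 for Slc2a1, -1.80 for Slc2a3, -1.38 for Pfkp and -0.78 for Gapdh in the RPKM values, and 0.93, -1.96, -1.75 and -0.78 after rescaling. On the same relative scale Pgk1 stood at 0.31 and 0.32, Ldha at 0.21 and 0.21, Hk2 at -0.28 and -0.31, Aldoa at -0.11 and -0.11, Eno1 at -0.24 and -0.24 and Hk1 at -0.42 and -0.75. Rescaling multiplies a whole sample by 1 factor, so these pairs had to match apart from the pseudocount, which weighs most on genes of low RPKM such as Hk1. A sign that changes only after rescaling therefore follows the shift of all genes, and a call made or lost there stands beside that shift. Quantile normalization did move genes against each other, with relative values of 1.17 for Slc2a1, -1.56 for Slc2a3, -1.40 for Pfkp, -0.08 for Gapdh, 0.74 for Pgk1, 0.81 for Ldha, 0.61 for Aldoa, 0.33 for Eno1, -0.78 for Hk1 and -0.08 for Hk2.

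**Figure D1:**
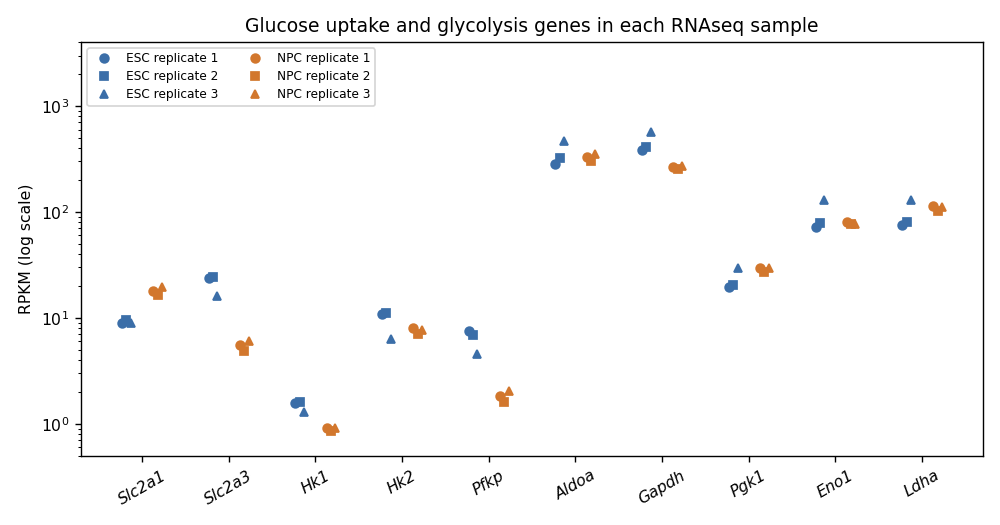
RPKM (log axis) of the 10 genes in each of the 3 ESC and 3 NPC samples, with a symbol for each replicate number; Aldoa is drawn from the higher of its table lines. Only Slc2a1 lies higher in all NPC samples, Slc2a3, Hk1, Pfkp and Gapdh lie lower in all NPC samples, and ESC replicate 3 (triangles) sits apart in most genes.

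The glucose transporters moved in opposite directions. Slc2a1, the widespread transporter of basal uptake, stood at 9.00, 9.47 and 9.04 RPKM in ESC replicates 1, 2 and 3 and 17.8, 16.4 and 19.5 RPKM in NPC replicates 1, 2 and 3. Every NPC sample lay above every ESC sample, and ESC replicate 3 was between the other ESC samples. The level rose 1.95-fold, with a log2 difference of 0.89 ± 0.10 (SE, adjusted p = 2.23e-04, limma). Slc2a3, the high-affinity transporter that is abundant in neurons and in the early embryo, stood at 24.0, 24.2 and 16.0 RPKM in ESC replicates 1, 2 and 3 and 5.54, 4.82 and 6.06 RPKM in NPC replicates 1, 2 and 3. All NPC samples lay below all ESC samples, with ESC replicate 3 the lowest of the ESCs. Slc2a3 was 3.91-fold higher in ESCs, with a log2 difference of -1.77 ± 0.18 (SE, adjusted p = 1.60e-04, limma), and -1.96 ± 0.08 (SE, adjusted p = 3.85e-07, limma) without ESC replicate 3.

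As a share of the summed RPKM of the pair, Slc2a3 made up 72.8%, 71.8% and 63.9% in the ESC samples and 23.7%, 22.7% and 23.7% in the NPC samples. Slc2a3 was thus the larger part in every ESC sample and the smaller in every NPC sample, and the same held per kilobase of exons, at 73.5% ± 4.51 in ESCs and 27.1% ± 0.606 in NPCs (SD, n = 3). The pair together summed to 33.0, 33.6 and 25.0 RPKM in ESCs and 23.4, 21.2 and 25.6 RPKM in NPCs, values that overlap.

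The hexokinases differed less. Hk1, the hexokinase found in most tissues, stood at 1.57, 1.62 and 1.29 RPKM in ESC replicates 1, 2 and 3 and 0.908, 0.848 and 0.905 RPKM in NPC replicates 1, 2 and 3. All NPC samples were below all ESC samples, and the log2 difference was -0.40 ± 0.06 (SE, adjusted p = 0.00165, limma), and -0.46 ± 0.03 (SE, adjusted p = 6.15e-06, limma) without ESC replicate 3. At levels this near to the pseudocount of 1 the log2 scale understates the change, which was 1.68-fold in RPKM. After rescaling, the log2 difference of Hk1 was -0.29 and not called (adjusted p = 0.248 in limma, where the alternatives ran from 3.55e-06 to 0.248), while relative to the median of all tested genes it went from -0.42 to -0.75. Hk2, the isoform of growing cells and of insulin-responsive tissue, stood at 10.9, 11.2 and 6.39 RPKM in ESC replicates 1, 2 and 3 and 8.06, 7.03 and 7.73 RPKM in NPC replicates 1, 2 and 3. ESC replicate 3 lay below every NPC sample and the other ESC samples above them, so the groups overlapped. The log2 difference of Hk2 was -0.25 ± 0.21 (SE, adjusted p = 0.300, limma), and -0.49 ± 0.06 (SE, adjusted p = 1.49e-04, limma) without ESC replicate 3, the 1 sample whose removal gave a call, where the adjusted p over alternatives ran from 1.49e-04 to 0.720. Hk2 made up 87.4%, 87.4% and 83.2% of the RPKM of the pair in ESCs and 89.9%, 89.2% and 89.5% in NPCs.

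The phosphofructokinase genes moved in opposite directions. Pfkp, the platelet-type subunit, stood at 7.53, 6.93 and 4.58 RPKM in ESC replicates 1, 2 and 3 and 1.84, 1.62 and 2.03 RPKM in NPC replicates 1, 2 and 3. All NPC samples were below all ESC samples, and the level was 3.47-fold higher in ESCs, with a log2 difference of -1.35 ± 0.17 (SE, adjusted p = 4.67e-04, limma), and -1.54 ± 0.07 (SE, adjusted p = 5.58e-07, limma) without ESC replicate 3. Pitrm1 overlaps Pfkp on the opposite strand. The sample labels name a library kit that keeps no strand, while the methods of the study name a stranded kit, so how much of the Pfkp values is reads of Pitrm1 cannot be told apart here. Pfkl, the liver-type subunit, stood at 8.93, 9.20 and 12.0 RPKM in the ESC replicates and 23.6, 22.9 and 23.4 RPKM in the NPC replicates and rose, with a log2 difference of 1.15 ± 0.13 (SE, adjusted p = 2.53e-04, limma). Pfkm, the muscle-type subunit, stood at 1.98, 1.92 and 2.07 RPKM in the ESC replicates and 2.80, 2.90 and 2.88 RPKM in the NPC replicates and rose as well, with a log2 difference of 0.37 ± 0.06 (SE, adjusted p = 0.00198, limma). The Pfkp share of the 3 subunit genes was 40.8%, 38.4% and 24.5% of RPKM in ESCs and 6.50%, 5.93% and 7.18% in NPCs. By RPKM Pfkl exceeded Pfkp in every sample. Per kilobase of exons, where Pfkm could not be measured, Pfkp stood at 38.8, 35.7 and 23.6 and Pfkl at 31.0, 31.9 and 41.7 in ESC replicates 1, 2 and 3, against 9.47, 8.36 and 10.5 for Pfkp and 82.0, 79.3 and 81.0 for Pfkl in the NPC replicates. The gene with the higher level in ESCs thus depends on the scale and the replicate, while in NPCs it was Pfkl on both scales.

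Aldoa and Gapdh, which act at the start of the lower part of the pathway, had the highest mean levels of the 10 genes per kilobase of exons in ESCs. Aldoa, the aldolase of muscle and most growing cells, has a pair of table lines at a constant ratio of 1.51 in every sample, and the higher line stood at 284, 320.5 and 463 RPKM in ESC replicates 1, 2 and 3 and 331, 304 and 351 RPKM in NPC replicates 1, 2 and 3. ESC replicates 1 and 3 spanned all NPC values, so the groups overlapped. On the sum of both lines the log2 difference of Aldoa was -0.09 ± 0.23 (SE, adjusted p = 0.750, limma), and it turned to 0.56 after quantile normalization and 0.12 without ESC replicate 3. Aldoa was 98.9% ± 0.132 of aldolase RPKM in ESCs and 97.9% ± 0.0383 in NPCs (SD, n = 3, on summed lines), and its brain-type partner Aldoc rose, with a log2 difference of 0.79 ± 0.12 (SE, adjusted p = 0.00102, limma).

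Gapdh, the enzyme that makes NADH in glycolysis, stood at 386, 408 and 564 RPKM in ESC replicates 1, 2 and 3 and 266, 254 and 271 RPKM in NPC replicates 1, 2 and 3. Every NPC sample lay below every ESC sample, and ESC replicate 3 was the highest. The level was 1.72-fold higher in ESCs, with a log2 difference of -0.76 ± 0.19 (SE, adjusted p = 0.0117, limma), and -0.59 ± 0.05 (SE, adjusted p = 1.92e-05, limma) without ESC replicate 3. The call of Gapdh was lost after quantile normalization (-0.13, adjusted p = 0.341 in limma) and without NPC replicate 2 (adjusted p = 0.0571), where the alternatives ran from 1.92e-05 to 0.341. Gapdh has 49 near copies of at least 97% identity in the annotation, 46 of them pseudogenes, and reads that fit several places may be shared among them, which was not tested.

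Pgk1, the kinase that makes the first ATP of the pathway, stood at 19.6, 20.3 and 29.4 RPKM in ESC replicates 1, 2 and 3 and 29.8, 27.0 and 29.7 RPKM in NPC replicates 1, 2 and 3. ESC replicates 1 and 2 were below all NPC samples while ESC replicate 3 lay among them. The log2 difference of Pgk1 was 0.33 ± 0.17 (SE, adjusted p = 0.123, limma), and 0.51 ± 0.06 (SE, adjusted p = 9.72e-05, limma) without ESC replicate 3, and it was also called after rescaling, after quantile normalization and with the length trend of that sample removed, the adjusted p over alternatives running from 9.72e-05 to 0.348. Eno1, the enolase of most tissues, stood at 72.4, 79.4 and 129.9 RPKM in ESC replicates 1, 2 and 3 and 80.5, 76.7 and 77.2 RPKM in NPC replicates 1, 2 and 3. The NPC values lay within the range of the ESC values. The log2 difference of Eno1 was -0.21 ± 0.23 (SE, adjusted p = 0.433, limma), and it turned to 0.28 after quantile normalization and 0.04 without ESC replicate 3.

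The other enolases moved more than Eno1 did. Eno2, the neuron-specific enolase, stood at 0.427, 0.512 and 0.520 RPKM in the ESC replicates and 13.0, 13.5 and 15.5 RPKM in the NPC replicates, and Eno3, the muscle enolase, at 2.01, 1.98 and 3.61 RPKM in the ESC replicates and 13.2, 15.1 and 15.1 RPKM in the NPC replicates. Both rose in all NPC samples, Eno2 with a log2 difference of 3.33 ± 0.09 (SE, adjusted p = 3.39e-07, limma) and Eno3 with 2.16 ± 0.19 (SE, adjusted p = 7.10e-05, limma). The Eno1 share of the 3 enolase genes was 96.7%, 96.96% and 96.9% of RPKM in ESCs and 75.5%, 72.8% and 71.6% in NPCs, and 96.0% ± 0.156 and 70.8% ± 2.11 per kilobase of exons (SD, n = 3). Eno2 passed the filter through NPCs alone. With Eno1b, a near copy of Eno1, counted in the family, a choice made after seeing the data, the Eno1 share was 60.7%, 63.4% and 62.4% in ESCs and 55.3%, 52.1% and 51.7% in NPCs. Eno1 was the largest part in every sample either way.

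Ldha, the lactate dehydrogenase subunit that favours lactate formation, stood at 75.2, 80.7 and 130.3 RPKM in ESC replicates 1, 2 and 3 and 114, 102 and 111 RPKM in NPC replicates 1, 2 and 3. ESC replicates 1 and 2 lay below all NPC samples and ESC replicate 3 above them. The log2 difference of Ldha was 0.23 ± 0.23 (SE, adjusted p = 0.384, limma), and 0.48 ± 0.06 (SE, adjusted p = 2.41e-04, limma) without ESC replicate 3, and Ldha was also called after rescaling and quantile normalization, the adjusted p over alternatives running from 2.41e-04 to 0.760. Ldhb, the subunit that favours pyruvate formation, stood at 24.1, 24.7 and 42.7 RPKM in the ESC replicates and 6.72, 5.44 and 5.21 RPKM in the NPC replicates and fell in all NPC samples, with a log2 difference of -2.17 ± 0.23 (SE, adjusted p = 2.21e-04, limma). Ldha made up 75.7%, 76.5% and 75.3% of the pair in ESCs and 94.4%, 95.0% and 95.5% in NPCs by RPKM, and 54.4% ± 0.840 and 87.7% ± 1.20 per kilobase of exons (SD, n = 3). The Ldha share was thus higher in every NPC sample on both scales, ESC replicate 3 included.

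The 6 isozyme shares, of Slc2a3, Hk2, Pfkp, Aldoa, Eno1 and Ldha, were each apart between ESCs and NPCs. Each gave p = 0.1 in a two-sided exact permutation test over samples, the smallest p that 3 against 3 samples allow, and 0.1 after Benjamini-Hochberg adjustment over the 6, so none can pass 0.05. The share of Slc2a3 fell by 46.1 percentage points, that of Pfkp by 28.0 and that of Eno1 by 23.6 (by 9.15 with Eno1b in the family), and that of Ldha was higher by 19.1.

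**Figure D2:**
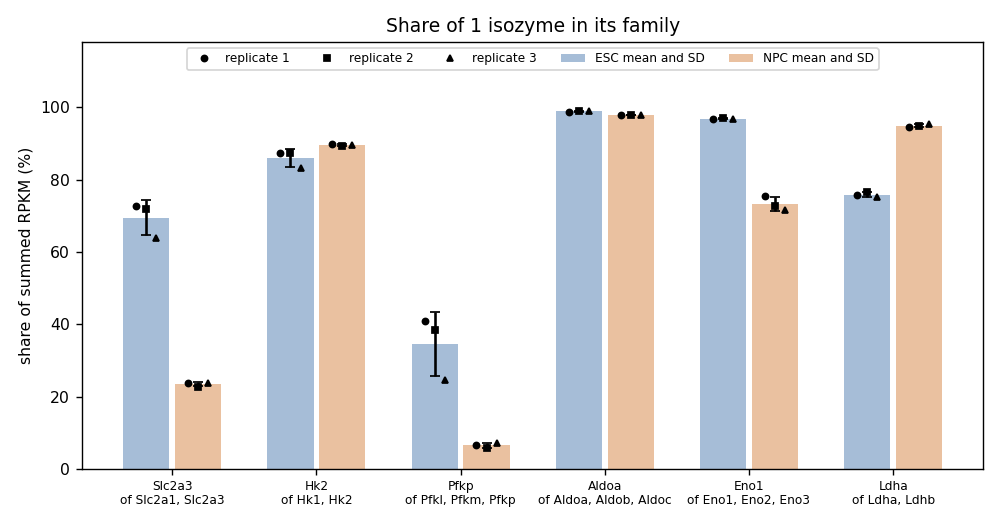
Share (%) of 1 isozyme in the summed RPKM of its family in ESCs and NPCs, as bars for the mean with SD and points for the 3 replicates of each; Eno1b is left out of the enolases. Slc2a3, Pfkp and Eno1 have smaller shares and Ldha a larger share in every NPC sample, while Hk2 and Aldoa make up 83.2% or more in every sample.

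**Figure D3:**
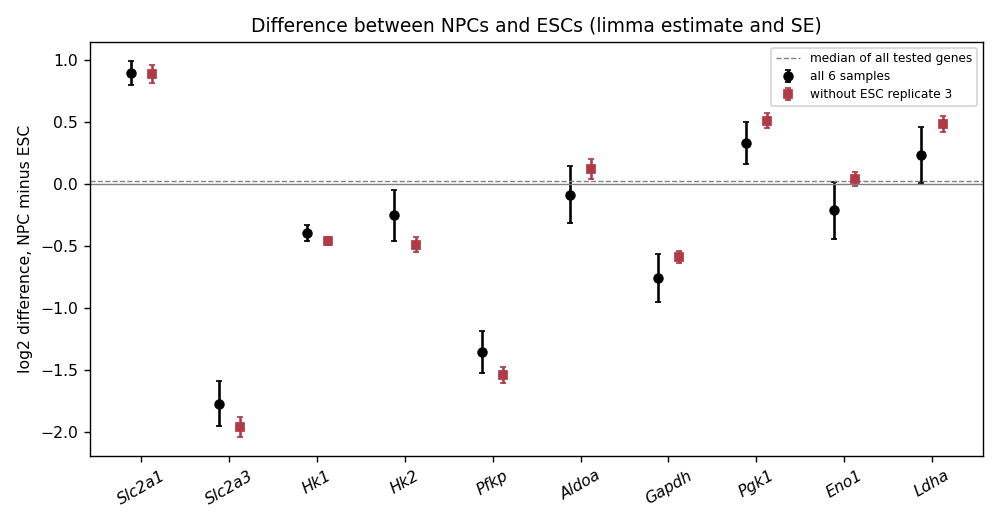
Log2 difference, NPC minus ESC, of the 10 genes with its SE from limma, with all 6 samples and without ESC replicate 3, beside the median of all tested genes (dashed). Slc2a1, Slc2a3, Hk1, Pfkp and Gapdh keep their side of 0 in both, while Aldoa and Eno1 change sides without ESC replicate 3.

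Per kilobase of exons, the order of mean levels in ESCs (RPKM recomputed on exon length, SD, n = 3) began with Aldoa at 675 ± 180.0, Gapdh at 520.5 ± 112 and Ldha at 408 ± 129.9. Slc2a3 at 218 ± 47.8, Eno1 at 212 ± 70.9 and Pgk1 at 171 ± 40.3 followed. Hk2 at 78.8 ± 22.5, Slc2a1 at 76.6 ± 2.18, Pfkp at 32.7 ± 8.03 and Hk1 at 19.4 ± 2.34 were lowest. Neighbours within the first group, within the second group, and Hk2 beside Slc2a1 did not differ beyond their spread, while Ldha and Slc2a3, Pgk1 and Hk2, Slc2a1 and Pfkp, and Pfkp and Hk1 did. This spread is over replicates and takes no account of the order within a sample. Within each ESC sample Aldoa lay above Gapdh, Gapdh above Ldha and Eno1 above Pgk1. In ESC replicate 3 Slc2a3 at 163 fell below both Eno1 at 294 and Pgk1 at 217, and Hk2 at 52.9 fell below Slc2a1 at 75.4.

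In NPCs on the same scale the order was Aldoa at 622 ± 44.6, Ldha at 466 ± 26.3 and Gapdh at 303 ± 9.67. Pgk1 at 213 ± 11.6, Eno1 at 177 ± 4.65 and Slc2a1 at 149.6 ± 13.2 followed. Hk2 at 63.0 ± 4.36, Slc2a3 at 55.8 ± 6.35, Hk1 at 11.5 ± 0.443 and Pfkp at 9.43 ± 1.05 were lowest. Only Hk2 and Slc2a3 did not differ beyond their spread among these neighbours, and Hk2 lay above Slc2a3 within each NPC sample. By mean level Slc2a3 moved from place 4 in ESCs to place 8 in NPCs and Slc2a1 from 8 to 6 (the cell types come from separate tables). The ESC places of both genes differ in ESC replicate 3, as given above. Aldoa, Gapdh, Ldha, Pgk1 and Eno1 were among the first 6 in both.

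Of 23 other enzymes of glycolysis, 13 were tested, and 12 of these had at least 1 RPKM in both cell types, of which 6 rose, 3 fell and 3 were not called, beside 26.2% and 34.7% of all genes in that set. Leaving out 1 sample each gave 1 to 4 lower among the 13, beside 2095 to 3453 of all 7848 tested genes. Tpi1, the isomerase between the aldolase products, was the highest in RPKM at 145 ± 46.0 RPKM in ESCs and 252 ± 13.7 RPKM in NPCs (SD, n = 3), with Pkm the highest per kilobase of exons. Tpi1 rose, with a log2 difference of 0.83 ± 0.23 (SE, adjusted p = 0.0172, limma), a call lost when any 1 sample other than ESC replicate 3 was left out. Adpgk, an ADP-dependent glucokinase, fell, with a log2 difference of -0.54 ± 0.16 (SE, adjusted p = 0.0228, limma), and its call was lost in the same way and after rescaling. Of 11 other sugar transporters only 2 were tested. Slc2a4, the insulin-responsive transporter, passed through NPCs alone, with a log2 difference of 1.83 ± 0.07 (SE, adjusted p = 1.65e-06, limma). Slc2a8, an intracellular transporter and the highest of this list in ESCs, had -0.19 ± 0.06 (SE, adjusted p = 0.0358, limma). Its fall was not called with a replicate block, without ESC replicate 2 or any 1 NPC sample, or after rescaling.

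Of 18 genes around lactate and pyruvate, 11 were tested and 9 had at least 1 RPKM in both cell types. Of these 3 rose, 4 fell and 2 were not called, beside 26.2% and 34.7% of all genes in the set. Slc16a3, the transporter that exports lactate, stood at 2.90 ± 0.266 RPKM in ESCs and 25.5 ± 0.823 RPKM in NPCs and rose, with a log2 difference of 2.77 ± 0.09 (SE, adjusted p = 6.23e-07, limma). Slc16a1, a transporter of lactate and pyruvate in either direction, stood at 12.6 ± 0.0257 RPKM in ESCs and 5.28 ± 0.275 RPKM in NPCs and fell, with -1.11 ± 0.08 (SE, adjusted p = 2.55e-05, limma). Pdk1, the kinase that switches off pyruvate dehydrogenase, rose, with 1.42 ± 0.09 (SE, adjusted p = 1.19e-05, limma), and Pdha1, a subunit of that enzyme, fell, with -1.09 ± 0.11 (SE, adjusted p = 1.95e-04, limma). Bsg, the partner protein of the lactate transporters and the highest of the list, had 0.32 ± 0.23 (SE, adjusted p = 0.248, limma) and was called higher without ESC replicate 3 (0.58), after rescaling (0.75), after quantile normalization (0.86) and with the length trend of that sample removed.

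Among 11 regulators of the flux, 6 were tested. Pfkfb3, which makes the activator of phosphofructokinase, passed through NPCs alone, with a log2 difference of 1.24 ± 0.04 (SE, adjusted p = 8.25e-07, limma), and Tigar, which removes that activator, through ESCs alone, with -2.57 ± 0.07 (SE, adjusted p = 3.23e-07, limma). Tigar stood at 7.25, 7.14 and 7.31 RPKM in the ESC replicates and 0.316, 0.381 and 0.464 RPKM in the NPC replicates. Mlxip, a glucose-sensing factor, also passed through NPCs alone (log2 difference 0.94 ± 0.12 SE, adjusted p = 5.56e-04 in limma). Of the other 3, its partner Mlx fell (log2 difference -0.82 ± 0.08 SE, adjusted p = 1.20e-04 in limma) and 2 rose, among them Txnip, which limits glucose uptake (log2 difference 0.64 ± 0.10 SE, adjusted p = 0.00125 in limma), beside 26.2% higher and 34.7% lower in the set. Txnip was the highest of the list in RPKM, and Tigar exceeded it in ESCs per kilobase of exons.

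Of 10 HIF pathway genes, 8 were tested, and Hif3a, Egln1 and Egln3 passed through NPCs alone. Of the other 5, 2 rose, 0 fell and 3 were not called, beside 26.2% and 34.7% in the set. Leaving out 1 sample each gave 4 to 5 higher and 0 to 1 lower among the 8. Over all 7848 tested genes the same gave 2523 to 3443 higher and 2095 to 3453 lower. The lower gene was Arnt, without ESC replicate 3 (log2 difference -0.16, adjusted p = 0.00539 in limma). Hif3a, a HIF subunit that can dampen the response, had a log2 difference of 2.25 ± 0.07 (SE, adjusted p = 6.37e-07, limma), and Egln1, the oxygen-sensing hydroxylase, 2.14 ± 0.06 (SE, adjusted p = 4.01e-07, limma). Egln2, the highest of the list in RPKM, had -0.15 ± 0.16 (SE, adjusted p = 0.420, limma), and Egln1 exceeded it in NPCs per kilobase of exons. Of 17 HIF targets outside glycolysis, 15 were tested, and 7 of these passed through NPCs alone, Adm among them. Of the other 8, 6 rose, 0 fell and 2 were not called, beside 26.2% and 34.7% of all genes with at least 1 RPKM in both cell types. Vegfa, the vascular growth factor, stood at 2.46, 2.24 and 1.57 RPKM in the ESC replicates and 40.6, 43.3 and 45.8 RPKM in the NPC replicates and rose, with 3.85 ± 0.13 (SE, adjusted p = 8.66e-07, limma). Adm, a vasodilator peptide, stood at 0.0544, 0.0687 and 0 RPKM in the ESC replicates and 13.5, 12.7 and 15.8 RPKM in the NPC replicates, with 3.84 ± 0.10 (SE, adjusted p = 2.61e-07, limma). Ddit4, an inhibitor of mTORC1 and the highest of the targets, stood at 34.8 ± 2.17 RPKM in ESCs and 151 ± 7.86 RPKM in NPCs and rose, with 2.09 ± 0.11 (SE, adjusted p = 7.29e-06, limma). Among the 10 uptake and glycolysis genes Slc2a1 rose and Slc2a3, Hk1, Pfkp and Gapdh fell, and the difference between the lists was not tested.

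Pentose phosphate and serine synthesis genes make the branches that leave glycolysis. Of 8 pentose phosphate genes, all tested, 5 fell and 3 were not called, beside 34.7% lower of all genes in the set. After rescaling 2 rose and 2 fell, beside 3525 and 1590 of all 7848 tested genes, and without ESC replicate 3 there were 2 higher and 6 lower, beside 43.9% and 44% of these. Taldo1, the transaldolase and the highest of the list in ESCs, fell, with a log2 difference of -2.11 ± 0.19 (SE, adjusted p = 9.45e-05, limma), and Pgd, the second dehydrogenase of the branch, fell, with -1.59 ± 0.12 (SE, adjusted p = 3.70e-05, limma). Of 5 serine synthesis genes Psph passed through ESCs alone, and the other 4 fell, beside the same 34.7%. Psat1, the transaminase of that branch, stood at 14.0, 13.8 and 14.1 RPKM in the ESC replicates and 2.17, 2.34 and 2.59 RPKM in the NPC replicates and fell, with -2.15 ± 0.08 (SE, adjusted p = 1.26e-06, limma), Shmt1, the cytosolic serine hydroxymethyltransferase, had -1.50 ± 0.07 (SE, adjusted p = 3.60e-06, limma), and Shmt2, its mitochondrial counterpart, had -1.33 ± 0.12 (SE, adjusted p = 7.60e-05, limma). Shmt2 was the highest of the list in RPKM, and Psat1 exceeded it in ESCs per kilobase of exons.

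Of 9 glycogen genes 6 were tested, and Gyg, Ugp2 and Pgm2 passed through NPCs alone. Of the other 3, 1 rose, 1 fell and 1 was not called, beside 26.2% and 34.7% in the set. Gys1, glycogen synthase, rose (log2 difference 1.07 ± 0.08 SE, adjusted p = 3.51e-05 in limma), and Pgm2 had a rise fixed in direction by the filter (log2 difference 1.86 ± 0.05 SE, adjusted p = 3.75e-07 in limma). Gys1 was the highest of the list in RPKM, and Pygb exceeded it in ESCs per kilobase of exons. Pgm1 fell (log2 difference -0.31 ± 0.08 SE, adjusted p = 0.0135 in limma), and its call was lost after rescaling, without NPC replicate 2 and with the exon length trend of ESC replicate 3 removed. Of 7 gluconeogenesis genes 2 were tested, G6pc3, a phosphatase of glucose 6-phosphate, which rose (log2 difference 1.05 ± 0.11 SE, adjusted p = 1.72e-04 in limma), and Pck2, the mitochondrial phosphoenolpyruvate carboxykinase, which fell (log2 difference -1.14 ± 0.14 SE, adjusted p = 4.28e-04 in limma), beside the same shares. Of the 3 MYC family genes 2 rose, beside 26.2% in the set, Myc (log2 difference 1.45 ± 0.08 SE, adjusted p = 9.90e-06 in limma) and Mycl (log2 difference 0.86 ± 0.10 SE, adjusted p = 2.90e-04 in limma). Mycn, the highest of them, had 0.15 ± 0.13 (SE, adjusted p = 0.342, limma) and was called higher after rescaling (0.58) and after quantile normalization.

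Across the 6 samples, the mean centred profile of the 10 glycolysis genes averages members that rose and members that fell. Among the tested genes outside the lists closest to it, of 7730 compared, were Opa3, Hmox1, Lipt1 and Rraga, with mean absolute differences of 0.0216, 0.0289, 0.0308 and 0.0322 on the log2 scale, against a median of 0.332 over all compared. Opa3 stood at 2.29, 2.37 and 2.61 RPKM in the ESC replicates and 1.75, 1.68 and 1.85 RPKM in the NPC replicates. Of the 10 genes themselves, Hk1 lay closest to their mean profile, at 0.0946, and Slc2a3 farthest, at 0.717.

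Position on the genome was compared with the NADs of the authors, who give 1769 in ESCs and 1447 in NPCs, each with a score and no replicate values. The 10 genes lie on 6 chromosomes, Slc2a1 and Eno1 on 4, Slc2a3, Hk2 and Gapdh on 6, Aldoa and Ldha on 7, Hk1 on 10, Pfkp on 13 and Pgk1 on X. Of them, 0 overlapped a NAD of ESCs and 1, Pgk1, overlapped a NAD of NPCs, beside 27.1% and 21.6% of the 21432 genes placed. Pgk1 at chrX:106187100-106203699 lies inside the NPC NAD at chrX:105799631-106499939, 700.3 kb long with a score of 0.0423, and was 86.9 kb from the nearest NAD of ESCs. Eno1 lay 51.1 kb from the nearest NAD in ESCs and 937 kb in NPCs, and Slc2a3 lay 298 kb and 98.1 kb away. The distances of Pgk1 and Eno1 in ESCs and of Slc2a3 in NPCs are below the resolution at which the authors mapped NADs. At that resolution they cannot be told apart from contact. The distances for Slc2a1 and Hk2 were the same in both cell types, at 363 kb and 1126 kb. No difference in these positions was tested, and the mean level of Pgk1 in NPCs was not below that in ESCs.

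Promoter windows of RefSeq (build GRCm38.p6, 250 bases before to 50 after a transcription start) were searched for the core letters of the HIF response element, ACGTG and GCGTG, on both strands (reverse complements CACGT and CACGC). Of all 32851 windows, 19.6% held ACGTG, 32.4% GCGTG and 43.8% either, and 7.15% held CACGTG, which contains ACGTG on both strands and is also the E-box that MYC binds. Windows were found for 9 of the 10 genes, 15 in all, and none for Slc2a3. ACGTG was in 8 windows of 7 genes, GCGTG in 9 windows of 6 genes, and either in 13 windows of 9 genes. The shares above are per window, so the gene counts have no share beside them. The 15 windows held 51.3% to 69% G or C. That content was not computed for all windows, and whether these genes have more matches than others was not tested. Overlapping windows of Aldoa hold the same ACGTG match and overlapping windows of Eno1 the same GCGTG matches, so some matches are counted in more than 1 window. A match describes letters, not a bound site, and a window without one says only that these letters are not in it.

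The printed windows are those of the gene that rose, the gene of the lower pathway with the most matches, the gene inside the NPC NAD, and 1 that fell, each 5′ to 3′ in lower case with the matched letters in capitals. Slc2a1 (chr4:119108495-119108794, strand plus) holds 1 ACGTG and 1 GCGTG, and Ldha (chr7:46845554-46845853, strand plus) holds 5 ACGTG, 2 GCGTG and 2 CACGTG. Pgk1 (chrX:106186850-106187149, strand plus) holds 2 ACGTG and no GCGTG, and Pfkp (chr13:6648722-6649021, strand minus) holds 4 GCGTG and no ACGTG. Slc2a1, which rose, and Pfkp, which fell, thus both have matches.
Slc2a1: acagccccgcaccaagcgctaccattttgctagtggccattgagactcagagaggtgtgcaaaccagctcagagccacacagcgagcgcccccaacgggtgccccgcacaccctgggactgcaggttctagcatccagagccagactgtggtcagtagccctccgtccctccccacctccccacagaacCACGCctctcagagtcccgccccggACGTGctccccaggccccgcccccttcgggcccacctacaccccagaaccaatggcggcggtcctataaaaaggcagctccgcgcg
Ldha: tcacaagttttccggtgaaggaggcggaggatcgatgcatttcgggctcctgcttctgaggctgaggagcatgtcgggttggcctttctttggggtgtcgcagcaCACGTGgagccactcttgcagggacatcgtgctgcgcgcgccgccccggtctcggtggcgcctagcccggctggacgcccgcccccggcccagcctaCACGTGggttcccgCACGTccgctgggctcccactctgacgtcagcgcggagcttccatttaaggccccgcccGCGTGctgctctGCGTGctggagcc
Pgk1: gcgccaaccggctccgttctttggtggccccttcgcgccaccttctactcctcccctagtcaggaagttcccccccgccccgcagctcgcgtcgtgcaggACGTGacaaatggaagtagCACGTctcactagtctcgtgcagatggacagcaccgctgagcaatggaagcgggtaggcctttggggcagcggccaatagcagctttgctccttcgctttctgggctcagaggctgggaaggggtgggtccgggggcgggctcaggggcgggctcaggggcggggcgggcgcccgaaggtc
Pfkp: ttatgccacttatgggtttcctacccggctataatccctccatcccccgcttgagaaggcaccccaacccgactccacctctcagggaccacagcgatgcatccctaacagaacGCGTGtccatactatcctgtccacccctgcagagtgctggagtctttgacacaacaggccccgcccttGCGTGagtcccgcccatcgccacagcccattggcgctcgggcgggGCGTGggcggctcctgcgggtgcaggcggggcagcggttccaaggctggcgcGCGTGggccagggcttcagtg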

How the data were processed

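RPKM tables deposited by the authors (polyA RNA, mouse build mm10, TruSeq libraries per the labels, with the length and annotation given in the report) hold 22064 lines; lines of 1 symbol were summed, which affects 153 symbols. NAD scores are those of the authors, from their Nucleolar-DamID files. The members, lists and tests were chosen with earlier results of these data known. Genes with RPKM of at least 1 in at least 3 samples were tested on log2(RPKM + 1) with limma 3.58.1 (R 4.3.3, lmFit and eBayes with trend), two-sided, Benjamini-Hochberg over all tested genes, without a block. In simulated data with 200 of 7848 genes changed by a log2 difference of 1, the fit recovered 154 and made 6 false calls. The simulated noise was independent between genes, so a deviation shared by many genes, as in ESC replicate 3, was not covered. Shares were tested with exact permutation in scipy 1.17.1, on Python 3.11.15. Gene positions and spans came from GENCODE M21, overlap with NADs counts 1 base or more, and near copies were found with BLAST 2.17.0 over at least 100 bases at 97% identity. In each pathway list the 2 genes with the largest rise, the 2 with the largest fall and the gene with the highest RPKM were named. Alternatives were a pseudocount of 0.1 or 0.5, other filters, rescaling, median centring, quantile normalization, no trend, a replicate block and each sample left out. Chosen after seeing the data were the highest line of each symbol, identical lines counted once, removal of the length trend of ESC replicate 3, limma voom on reads recovered from RPKM and shares per kilobase of exons. So were the Eno1 share with Eno1b, the Pfkp share beside Pfkl alone, and list counts over genes with at least 1 RPKM in a sample of each cell type. The ChIPseq samples were not analysed here.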

Additional observations from a re-analysis of the deposited data

How the results depend on the processing

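Slc2a1, Slc2a3 and Pfkp kept their direction and their call in all 21 alternatives run, with log2 differences, NPC minus ESC, from 0.78 to 1.38, from -1.96 to -1.51 and from -1.77 to -1.24. Over all tested genes, 7247 rose and 4208 fell with no filter on low values (18360 genes tested, which is part of the rise in count), 6297 rose with limma voom on recovered reads (13579 genes), and 1590 fell after rescaling. Among the 5943 genes with at least 1 RPKM in a sample of each cell type 1557 rose, a smaller count in part because fewer genes are in it. Without 1 sample each, 2523 to 3443 rose and 2095 to 3453 fell. Among the 10 glycolysis genes, 3 rose after rescaling (3525 of all 7848), 5 after quantile normalization (2676 of 7848), and 2 with the trend of ESC replicate 3 removed, on exon length with gene span (2768 of 7077) or on exon length alone (3006 of 7776); without 1 sample each, 1 to 3 rose and 3 to 5 fell. For these the cause was not tested.

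Genes not called with all 6 samples changed direction, after rescaling with the shift of all genes (relative to their median none of the 3 turned there): Hk2 to 0.14 after rescaling, Aldoa to 0.34 after rescaling and 0.56 after quantile normalization (adjusted p = 0.00298 in limma, range over alternatives 0.00298 to 0.936), and Eno1 to 0.21 and 0.28 (adjusted p = 0.0340, range 0.0340 to 0.576). Without 1 sample each, Aldoa ran from -0.23 to 0.12 and Eno1 from -0.38 to 0.042, the positive value being that without ESC replicate 3. Of 484 recomputed list counts, 444 were within 1.5 times the reported count. All 51 recomputed isozyme shares kept their direction. With a replicate block, 2760 genes rose and 2465 fell, and the calls of the 10 genes did not change. Deviations of ESC and NPC samples with the same number correlated at 0.11, -0.08 and 0.03. Those of samples with different numbers correlated between -0.09 and 0.09. With 3 samples of each cell type these values cannot decide whether the numbers mark pairs.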

Other observations

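Several of the 10 glycolysis genes share their place with genes on the opposite strand: Gm12868 with Slc2a1, Hk1os with Hk1, Pitrm1 with Pfkp, Fam57b with Aldoa and Iffo1 with Gapdh. Whether the libraries kept the strand is described both ways in the sources, so reads of these genes may be counted together. Pitrm1, a mitochondrial protease gene, stood at 5.12, 5.15 and 3.24 RPKM in the ESC replicates and 4.59, 4.21 and 4.32 RPKM in the NPC replicates, levels that overlap while those of Pfkp do not. Iffo1 stood between 0.893 and 1.53 RPKM and Fam57b at or below 0.162 RPKM in every sample. Eno1b, a near copy of Eno1 of 99.5% identity, stood at 44.4, 43.3 and 74.3 RPKM in the ESC replicates and 38.9, 42.1 and 41.4 RPKM in the NPC replicates, highest in ESC replicate 3 as Eno1 was. How reads were divided between Eno1 and Eno1b is not given in the sources used here.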
